A study of Mus musculus with 36 samples.

Results

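The 10 genes described here encode proteins used to recognise preadipocytes and other mesenchymal cells, together with a transcription factor of preadipocytes. They are Thy1, Pdgfra, Pdgfrb, Ly6a, Cd34, Dpp4, Pdpn, Eng, Nt5e and Zfp423, and they were taken by symbol from the 52505 genes of the deposited expression table. The rule for taking them used no measured value, although earlier results of these data were known when it was set. Zfp423 is a nuclear zinc-finger protein and the other members lie on the cell surface. RNA was sequenced from 3T3L1 cells, a mouse fibroblast line that forms fat cells in culture, as 12 libraries in 4 groups of 3. The groups were wild type (WT) and Zfp217 knockout (KO) cells, each at day 0 and at day 2 of the adipogenic mixture called MDI. Per the labels that mixture held DEX, isobutyl-methylxanthine, insulin and indometacin, and all 4 groups carry the same treatment label, so that the day distinguishes the groups within a genotype. The labels do not say whether the KO cells were a single clone, nor whether libraries sharing a group were grown as separate cultures. A p-value here therefore reflects how far these particular libraries scatter, which may be technical.

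Preadipocytes are the committed precursors of fat cells and share most of their surface proteins with other fibroblasts. In adipose tissue, cells with Pdgfra, Ly6a (Sca-1) and Cd34 contain the precursors, a subset with Dpp4 lies in the interstitium, and Pdgfrb marks precursors and pericytes. When such cells become adipocytes they generally lose these proteins, while Zfp423 is known for making preadipocytes responsive to bone morphogenetic proteins and inducing Pparg.

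Levels are in FPKM (fragments per kilobase of gene, scaled to library depth), so that genes of different length can be set side by side, and each is the authors' deposited value. Recovered totals were 18073258 to 23114994 reads per library. Changes were tested with limma on log2(FPKM + 1) over the 12961 genes averaging 1 FPKM or more, and adjusted p below is the Benjamini-Hochberg value over all of them, called at 0.05. Zfp217 itself was at 21.7, 21.9 and 22.3 FPKM in the libraries labelled WT at day 0 and at 25.2, 25.8 and 26.9 in those labelled KO, a ratio of 1.18. At day 2 it was at 15.1 ± 0.369 and 22.6 ± 0.858 FPKM (SD, n = 3), a ratio of 1.5, and at both days the exact permutation test gave p = 0.1, the smallest that 3 against 3 allows. The message was thus not lower in the KO-labelled libraries, and since the labels do not place the edit in the gene, this level is no check of the knockout. The WT day 0 replicate 3 library had 23 genes at least 4-fold from both other libraries of its group, against 1 to 5 in the other libraries. Markers of fibroblasts were abundant in every group, with a sum of 8 genes between 1584 and 28840 FPKM. Endothelial markers summed to 0.11 to 1.2 FPKM over 10 genes with Tie1 listed at 0 throughout, and epithelial markers to at most 0.80 over 7 genes with Epcam at 0. Leukocyte markers summed to 3.33 to 17.5 FPKM over 9 genes, of which 7 stayed under 1 FPKM and Cd68 and Lyz2 were tested. Lyz2, which encodes lysozyme, was at 1.5 FPKM in WT-labelled and 14.8 in KO-labelled cells at day 0 (log2 difference 2.66, limma adjusted p = 6.49e-11) and at 0.0603 and 1.65 at day 2 (1.32, adjusted p = 4.22e-08). Fibroblast markers thus stood far above endothelial, epithelial and leukocyte ones in every group. The summed smooth muscle and pericyte markers, mostly Acta2, reached 551 FPKM at WT-labelled day 0. Adipocyte markers exceeded fibroblast markers at WT-labelled day 2.

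Of the 10 members, 8 passed the filter of 1 FPKM. Nt5e and Dpp4 did not, and 3 others passed only through the groups in which they were high. These were Cd34 through the WT-labelled day 0 libraries, Eng through both day 0 groups and Zfp423 through 2 groups, so a difference in them was built in and counts over the 8 describe the set without supporting anything. Some genes of the other lists below, among them Adipoq, Fmo2, Mcam and Cd24a, also passed only through a group in which they were high. In the GRCm38.p6 annotation, build mm10, Thy1 lies at chr9:44043384-44048579, Pdgfra at chr5:75151322-75198206, Ly6a at chr15:74994877-74998031 and Pdpn at chr4:143267409-143299564. Cd34 lies at chr1:194938821-194961292, Eng at chr2:32646595-32682669, Dpp4 at chr2:62330073-62412315, Nt5e at chr9:88327609-88372089 and Zfp423 at chr8:87661810-87962053.

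Promoter windows from RefSeq were matched for 7 members (Cd34, Eng, Dpp4, Pdpn, Pdgfra, Zfp423 and Nt5e). Those of Pdpn, Cd34 and Nt5e are shown, because Pdpn and Cd34 had the largest folds between groups among the members that passed the filter over time in WT-labelled cells and between genotypes at day 0, and Nt5e had very little message. Each is the 250 bases before the annotated start, 5′ to 3′ on the gene's strand, with CG pairs in capitals.
Pdpn, chr4:143299565-143299814, minus strand: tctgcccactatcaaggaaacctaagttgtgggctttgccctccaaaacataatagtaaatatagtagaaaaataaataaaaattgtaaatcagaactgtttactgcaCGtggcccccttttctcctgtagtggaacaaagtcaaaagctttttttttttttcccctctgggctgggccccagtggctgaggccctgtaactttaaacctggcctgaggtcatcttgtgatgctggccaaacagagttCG
Cd34, chr1:194938571-194938820, plus strand: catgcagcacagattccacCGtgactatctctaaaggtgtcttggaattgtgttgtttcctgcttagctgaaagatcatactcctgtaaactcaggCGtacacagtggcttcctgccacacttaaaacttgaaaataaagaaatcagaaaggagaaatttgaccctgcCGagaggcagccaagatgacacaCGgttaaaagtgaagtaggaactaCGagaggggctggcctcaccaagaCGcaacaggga
Nt5e, chr9:88327359-88327608, plus strand: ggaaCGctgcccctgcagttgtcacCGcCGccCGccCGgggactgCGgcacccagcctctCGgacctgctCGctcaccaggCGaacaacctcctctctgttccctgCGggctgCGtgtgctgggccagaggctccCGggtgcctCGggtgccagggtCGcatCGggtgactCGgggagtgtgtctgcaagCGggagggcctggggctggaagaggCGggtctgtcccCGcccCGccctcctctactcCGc
The Pdpn window had 43.2% G and C and 2 CG pairs, and the Cd34 window 46.4% and 6, beside medians of 52.4% and 6 over 32851 promoters. The Nt5e window had 72% and 21 CG pairs. Zfp423, whose windows are not shown because they do not end at the annotated gene start, had 71.6% and 18 CG pairs in 1 window and 64.8% and 6 in the other, and Dpp4 had 43.6% and 4, so the windows of low members ranged from poor to rich in CG pairs. On both strands 9 short motifs were searched. They were the TATA box (TATAAA, in 12.4% of all windows), the CCAAT box (33.8%), the GC box (GGGCGG, 32.7%), a glucocorticoid receptor site (AGAACA, 16.1%), the cyclic AMP element (TGACGTCA, 1.55%), the STAT site (TTCNNNGAA, 7.02%), the interferon-stimulated element (2.98%), the TEAD site (GGAATG, 12.6%) and an E-box (CAGGTG, 17.2%). None was in the Pdpn, Cd34, Eng or Pdgfra window. Nt5e held the GC box at 4 positions, and the Zfp423 windows held it at 2 and at 1. Dpp4 held the TATA box, the glucocorticoid receptor site, the interferon-stimulated element and the TEAD site at 1 position each. The Dpp4 and Pdgfra windows, like those of Zfp423, do not end at the annotated gene start. The Pdgfra window (chr5:75152001-75152250) lies within the gene given above. The Dpp4 window (chr2:62412232-62412481) overlaps its gene, and the interferon-stimulated element lies in the overlapping part. A match or its absence describes these letters alone.

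The largest movement in the set was the fall of surface markers in WT-labelled cells over the 2 days. Pdpn, Pdgfrb, Ly6a and Thy1 fell by 16.2-fold to 103.4-fold in mean FPKM, Cd34 and Eng fell from lower levels, Pdgfra fell 2.08-fold and Zfp423 rose. The 10 genes summed to 836 to 860 FPKM per library at day 0 and to 77.5 to 79.8 at day 2. In KO-labelled cells the sum went from 958 to 972 down to 531 to 539 FPKM. At day 0 Thy1 made up 61.2% of the sum in WT-labelled and 55.8% in KO-labelled libraries, and at day 2 40.6% and 55.6%. In bulk RNA fewer cells carrying a marker and less message per cell cannot be told apart.

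**Figure D1:**
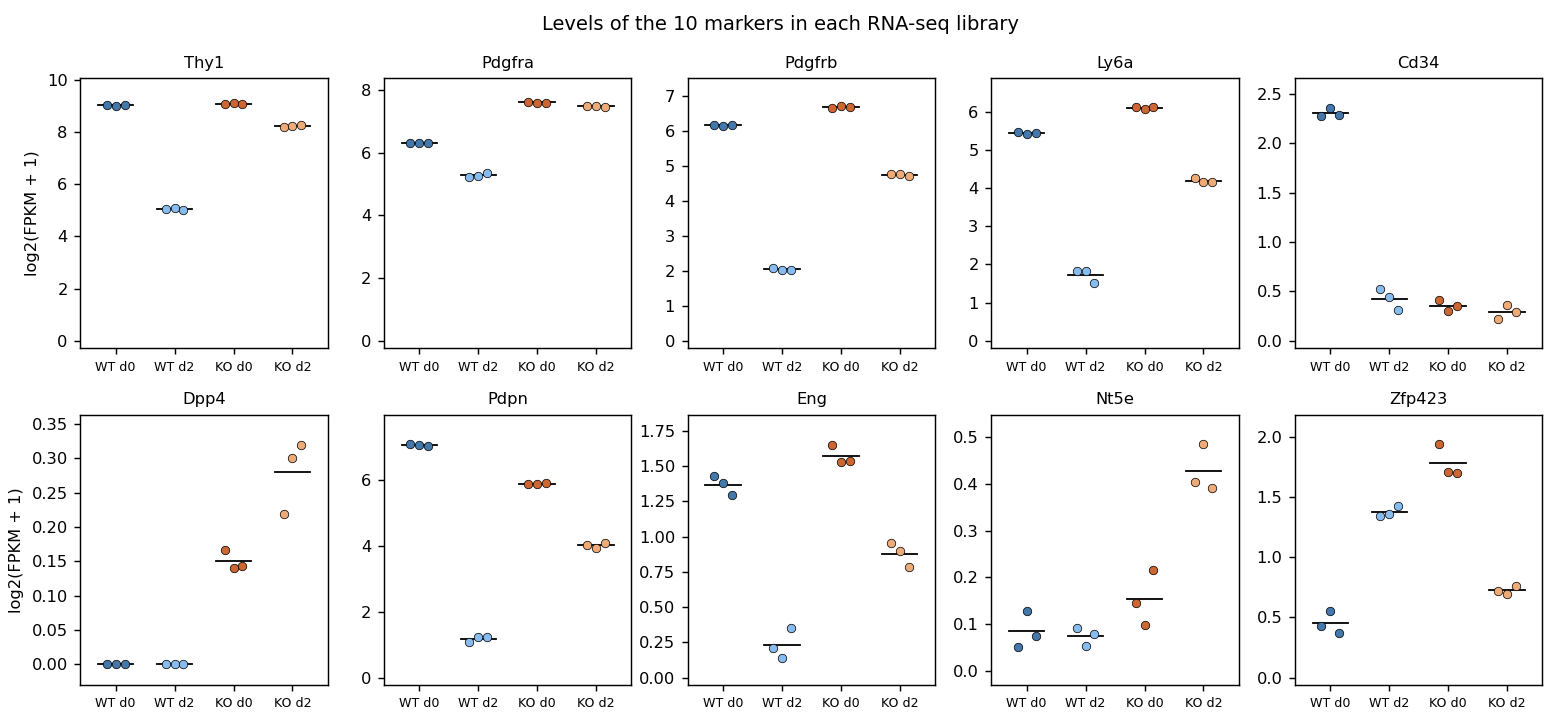
Each panel plots log2(FPKM + 1) of a marker in the 12 libraries (points) with the group mean (line), for WT and KO labels at day 0 (d0) and day 2 (d2). The vertical scales differ between panels; Thy1, Pdgfrb, Ly6a and Pdpn have their lowest points in the WT day 2 libraries, while Cd34 is high only in the WT day 0 libraries and Dpp4 is at 0 in both WT groups.

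Thy1 (CD90), a lipid-anchored glycoprotein of fibroblasts, was the most abundant member in every group but WT day 2. It stood at 528, 508 and 521 FPKM in WT-labelled day 0 libraries and at 31.8, 32.8 and 31.4 at day 2. In KO-labelled libraries it was at 534, 549 and 531 FPKM at day 0 and at 291, 298 and 305 at day 2. At day 0 the genotypes lay close together without overlapping, and at day 2 every KO-labelled library was far above every WT-labelled one. The fitted log2 difference at day 0 was 0.05 (SE 0.03, limma adjusted p = 0.0728), a ratio of means of 1.04, and it passed the threshold when the table was rescaled (0.14 with median-of-ratios factors and 0.16 with TPM). At day 2 it was 3.18 (SE 0.03, adjusted p = 4.60e-16), or 9.31-fold. Over time Thy1 fell by 3.98 on the log2 scale in WT-labelled cells (adjusted p = 4.30e-17) and by 0.85 in KO-labelled cells (adjusted p = 2.94e-11). In rank, Thy1 lay above 98.6% of tested genes in WT-labelled cells at day 0 and above 69.9% at day 2, while in KO-labelled cells it kept above 97.7% at day 2.

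Pdgfra and Pdgfrb encode the receptor tyrosine kinases for platelet-derived growth factors (PDGF), which drive growth and migration of mesenchymal cells. Pdgfra was at 78.6, 78.9 and 78.6 FPKM in WT-labelled day 0 libraries and at 36.7, 37.3 and 39.8 at day 2. The KO-labelled libraries had 196, 191 and 192 FPKM at day 0 and 178, 180 and 174 at day 2. Every KO-labelled library, day 2 included, exceeded every WT-labelled library of either day. The difference was 1.28 on the log2 scale at day 0 (SE 0.03, limma adjusted p = 1.51e-12), a 2.45-fold ratio, and 2.2 at day 2 (SE 0.03, adjusted p = 1.27e-14), a 4.67-fold ratio. Pdgfra fell by 1.04 on the log2 scale over time in WT-labelled cells (adjusted p = 6.75e-12) but by only 0.12 in KO-labelled cells (adjusted p = 0.00209), a 1.09-fold change.

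Pdgfrb was at 71.5, 70.4 and 72.2 FPKM in WT-labelled libraries at day 0 and at 3.27, 3.10 and 3.08 at day 2. The KO-labelled libraries had 101, 105 and 102 FPKM at day 0 and 26.5, 26.5 and 25.4 at day 2. No pair of groups overlapped, with KO-labelled day 0 highest and WT-labelled day 2 lowest. KO-labelled cells exceeded WT-labelled cells by 0.52 on the log2 scale at day 0 (SE 0.03, limma adjusted p = 6.86e-09), a 1.44-fold ratio, and by 2.71 at day 2 (SE 0.03, adjusted p = 3.47e-15), an 8.30-fold ratio. Over time Pdgfrb fell 22.7-fold in WT-labelled and 3.93-fold in KO-labelled cells (adjusted p = 8.86e-17 and 8.14e-14). The receptors therefore did not move in proportion. The ratio of Pdgfra to Pdgfrb in FPKM was 1.10 ± 0.0163 in WT-labelled cells at day 0 and 12.1 ± 0.841 at day 2, and 1.88 ± 0.0644 and 6.78 ± 0.0732 in KO-labelled cells (SD, n = 3 each). In WT-labelled day 2 libraries Pdgfra, not Thy1, was the most abundant member.

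The PDGF ligands and the signalling genes downstream did not share one direction. Pdgfa, which binds the alpha receptor, was at 30.2 ± 0.725 FPKM in WT-labelled and 17.7 ± 0.664 in KO-labelled cells at day 0 (SD, n = 3; log2 difference -0.74, limma adjusted p = 1.18e-07). Pdgfc, another ligand of that receptor, was at 20.7 ± 0.389 and 14.1 ± 0.460 FPKM (-0.53, adjusted p = 1.09e-07). So at day 0 the receptors were higher and these ligands lower in KO-labelled cells. At day 2 Pdgfa was at 9.87 ± 0.811 and 8.90 ± 0.516 FPKM and Pdgfc at 9.15 ± 0.266 and 8.48 ± 0.338. Their log2 differences of -0.13 and -0.10 passed the threshold (adjusted p = 0.0447 and 0.0381), but not with TPM or median-of-ratios factors. Pdgfb was at 0.849 ± 0.0848 FPKM in WT-labelled day 0 cells and at 0.139 or less in the other groups on average, and Pdgfd was near 0, so neither was tested. Pdgfrl, which encodes a receptor-like protein without a kinase domain, differed most in the list, at 10.4 ± 0.534 FPKM in WT-labelled and 78.0 ± 0.419 in KO-labelled cells at day 0 (2.79, adjusted p = 8.69e-14) and at 2.63 ± 0.130 and 23.4 ± 0.944 at day 2 (2.75, adjusted p = 6.75e-14). Of the 13 ligand and signalling genes 11 were tested. At each day 6 were higher and 5 lower in KO-labelled cells, with a median log2 difference of 0.19 at day 0 and 0.40 at day 2. Over all tested genes 38.3% were higher and 44.2% lower at day 0 with a median of -0.06, and 40.8% and 40.6% at day 2 with a median of 0.00, which is the background for the other gene lists too. Ptpn11, lower at day 0 by 0.07, and Pik3r1, lower at day 2 by 0.10, changed sign under another scaling. The day 2 count was 6 higher and 2 lower with TPM and 6 and 3 with median-of-ratios factors.

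**Figure D2:**
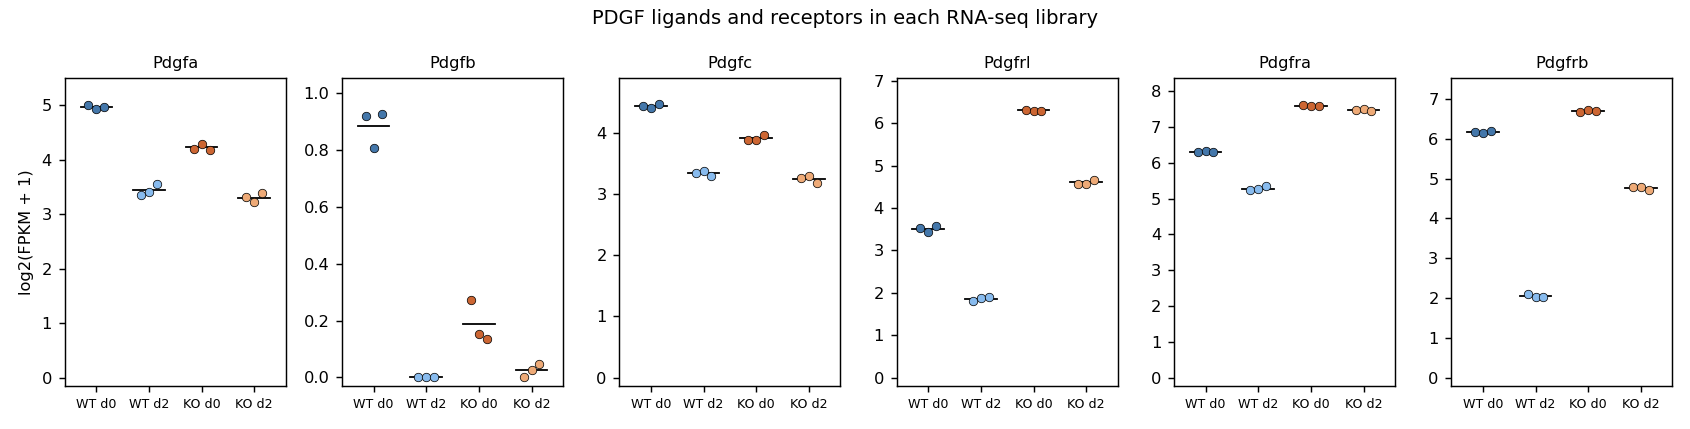
Points are log2(FPKM + 1) of PDGF ligands (Pdgfa, Pdgfb, Pdgfc), the receptor-like gene Pdgfrl and the receptors Pdgfra and Pdgfrb in the 12 libraries, with lines at group means; vertical scales differ. Pdgfa and Pdgfc are lower in KO than WT at day 0 while Pdgfrl, Pdgfra and Pdgfrb are higher.

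Ly6a (Sca-1), a lipid-anchored surface protein used to sort stromal progenitors in mice, was at 43.5, 41.3 and 42.5 FPKM in WT-labelled libraries at day 0 and at 2.54, 2.56 and 1.86 at day 2. In KO-labelled libraries it was at 69.1, 65.7 and 68.9 FPKM and then at 18.3, 16.9 and 16.8. The groups did not overlap. The KO-labelled libraries were higher by 0.66 on the log2 scale at day 0 (SE 0.07, limma adjusted p = 3.44e-06; 1.60-fold) and by 2.47 at day 2 (SE 0.07, adjusted p = 1.47e-11; 7.47-fold). Ly6a fell 18.3-fold over time in WT-labelled and 3.92-fold in KO-labelled cells (adjusted p = 3.01e-13 and 2.94e-10). Ly6a lies in a cluster of related genes, and Ly6c1 and Ly6e of that family are near-relatives between which read assignment may be uncertain. All 5 tested neighbours within 500 kb (Jrk, Them6, Lynx1, Ly6e and Ly6c1) were also higher in KO-labelled cells at both days. The log2 differences were 0.34 to 1.79 at day 0 and 0.24 to 3.43 at day 2. Over all tested genes 38.3% were higher at day 0 and 40.8% at day 2. Around the members with more tested neighbours the day 0 split was 8 higher and 8 lower for Thy1 and 3 and 6 for Pdgfrb. For Eng it was 13 and 14, and for Nt5e 3 and 3.

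Pdpn (podoplanin), a mucin-like glycoprotein of fibroblasts that links to the actin cytoskeleton, had the widest range among the members. It was at 133, 131 and 128 FPKM in WT-labelled libraries at day 0 and at 1.11, 1.33 and 1.36 at day 2. In KO-labelled libraries it was at 57.3, 57.5 and 58.9 FPKM at day 0 and at 15.3, 14.4 and 15.8 at day 2. The order of the genotypes was reversed between the days, with no overlap at either. KO-labelled cells were lower at day 0 by a log2 difference of -1.16 (SE 0.05, limma adjusted p = 2.79e-10), a 2.26-fold ratio, and higher at day 2 by 2.84 (SE 0.05, adjusted p = 8.78e-14), a 12-fold ratio. The fall over time was 103.4-fold in WT-labelled and 3.81-fold in KO-labelled cells (adjusted p = 1.94e-16 and 6.48e-12). Among 7 tested partners of podoplanin (of 9 listed), 2 were higher and 5 lower in KO-labelled cells at day 0, and 5 higher and 0 lower at day 2. The median log2 difference was -0.32 and then 0.35. With TPM, median-of-ratios factors or quantile scaling the day 2 count was 6 higher and 0 lower. Cd44, the hyaluronan receptor that binds podoplanin, was at 91.1 FPKM in WT-labelled and 32.2 in KO-labelled cells at day 0 (-1.47) and at 21.4 and 55.4 at day 2 (1.33, adjusted p = 4.52e-13). Ezr, encoding the membrane-to-actin linker ezrin, was at 129 and 42.2 FPKM at day 0 (-1.59, adjusted p = 4.16e-12) and at 22.2 and 22.1 at day 2 (-0.01, adjusted p = 0.893).

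Cd34, a sialomucin of progenitors and endothelium, was found at an appreciable level in 1 group alone. It was at 3.84, 4.11 and 3.86 FPKM in WT-labelled day 0 libraries and at 0.434, 0.357 and 0.244 at day 2. KO-labelled libraries had 0.328, 0.233 and 0.280 FPKM at day 0 and 0.163, 0.287 and 0.220 at day 2. The 3 low groups overlapped one another in order of level, and the WT-labelled day 0 group stood apart. Cd34 was lower in KO-labelled cells at day 0 by a log2 difference of -1.95 (SE 0.08, limma adjusted p = 5.51e-10), a 14.0-fold ratio of mean FPKM. At day 2 the difference was -0.14 (adjusted p = 0.154). Over time it fell 11.4-fold in WT-labelled cells (adjusted p = 6.60e-10), and in KO-labelled cells the change was -0.07 (adjusted p = 0.493). At day 0, Cd34 and Pdpn were thus lower in KO-labelled cells while Pdgfra, Pdgfrb and Ly6a were higher. Acta2, a smooth muscle marker, was also lower in KO-labelled cells at day 0, at 541 FPKM in WT-labelled and 74.0 in KO-labelled cells. Like Pdpn but not Cd34, Acta2 was higher at day 2, at 2.54 and 19.6 FPKM. The sum over 9 smooth muscle and pericyte markers was 534 to 551 FPKM in WT-labelled and 74.3 to 76.6 in KO-labelled libraries at day 0. At day 2 that sum was 3.74 to 4.29 and 20.1 to 21.9. Most of it was Acta2, the only tested gene of the list. The other genes of the list were low and did not share one direction. At day 0 Rgs5 was at 0.230 and 0.0671 FPKM and Myh11 at 0.0212 and 0.0910 in WT- and KO-labelled cells. The part of these markers in the results on Cd34 and Pdpn was not tested. Endothelial markers were all under 1 FPKM, and their part in the Cd34 result was not tested.

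Eng (endoglin, CD105), a co-receptor for TGF-beta family ligands, was low. It was at 1.70, 1.61 and 1.45 FPKM in WT-labelled day 0 libraries and at 0.156, 0.101 and 0.276 at day 2. In KO-labelled libraries it was at 2.14, 1.89 and 1.90 FPKM and then at 0.942, 0.865 and 0.721. The groups did not overlap at either day. The day 2 difference was 0.65 on the log2 scale (SE 0.09, limma adjusted p = 2.22e-05), a 4.75-fold ratio. At day 0 it was 0.20 (SE 0.09, adjusted p = 0.0484), a 1.24-fold ratio. This call was lost on leaving out any of the 6 libraries compared (0.16 to 0.23). It was also lost with voom on recovered reads (0.31, adjusted p = 0.0649) and with quantile scaling (0.06, limma adjusted p = 0.571). Eng fell 8.94-fold over time in WT-labelled and 2.34-fold in KO-labelled cells (adjusted p = 1.19e-07 and 1.77e-05). Of 10 receptor partners and SMAD proteins of endoglin 7 were tested, of which 4 were higher and 2 lower in KO-labelled cells at day 0 and 5 higher and 1 lower at day 2, with medians of 0.10 and 0.20. With TPM, median-of-ratios factors or quantile scaling the day 0 count was 5 higher and 2 lower. Acvr2a, an activin receptor, was at 29.2 FPKM in WT-labelled and 80.1 in KO-labelled cells at day 0 (1.43, adjusted p = 1.96e-11). Tgfbr2, the type II TGF-beta receptor, was at 27.1 and 81.7 FPKM at day 2 (1.56, adjusted p = 6.74e-13).

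Zfp423 rose in WT-labelled cells while the tested surface genes fell. It was at 0.347, 0.470 and 0.289 FPKM in WT-labelled libraries at day 0 and at 1.54, 1.57 and 1.69 at day 2. In KO-labelled libraries it was at 2.84, 2.26 and 2.26 FPKM at day 0 and at 0.646, 0.622 and 0.699 at day 2. No groups overlapped, and the order ran from KO-labelled day 0 through WT-labelled day 2 and KO-labelled day 2 to WT-labelled day 0. The difference between genotypes was 1.33 on the log2 scale at day 0 (SE 0.09, limma adjusted p = 2.82e-08), a 6.66-fold ratio, and -0.65 at day 2 (SE 0.09, adjusted p = 2.23e-05), a 2.44-fold ratio the other way. It rose 4.33-fold over time in WT-labelled cells (adjusted p = 8.73e-07) and fell 3.74-fold in KO-labelled cells (adjusted p = 4.14e-07). The 674 tested genes of chromosome 8, where Zfp423 lies, had medians 0.42 (day 0) and 0.40 (day 2) above the median of all tested genes on the log2 scale, and the part of this in the Zfp423 difference was not tested. Zfp521, the related zinc-finger protein that opposes adipocyte formation, was at 8.12 ± 0.147 FPKM in WT-labelled and 19.3 ± 0.419 in KO-labelled cells at day 0 (1.15, adjusted p = 6.40e-11) and at 1.92 ± 0.046 and 7.80 ± 0.195 at day 2 (1.59, adjusted p = 2.98e-12).

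Of the EBF transcription factors, which act in preadipocytes, Ebf1, Ebf2 and Ebf3 were tested. All 3 were higher in KO-labelled cells at day 0, and at day 2 Ebf2 was lower, Ebf3 higher and Ebf1 not past the threshold. Ebf1 was at 16.2 ± 0.610 and 26.2 ± 0.715 FPKM in WT- and KO-labelled cells at day 0 (0.66, limma adjusted p = 1.19e-08) and at 24.7 ± 0.389 and 23.9 ± 1.15 at day 2 (-0.05, adjusted p = 0.294; SD, n = 3). Ebf2 was at 1.18 ± 0.0885 and 1.64 ± 0.146 FPKM at day 0 (0.28, adjusted p = 0.0068), a call lost with quantile scaling (0.10), and at 3.85 ± 0.358 and 1.11 ± 0.102 at day 2 (-1.20, adjusted p = 2.99e-08). Ebf3 was at 16.9 ± 0.458 and 20.6 ± 0.256 FPKM at day 0 (0.27, adjusted p = 9.95e-06) and at 9.56 ± 0.164 and 10.6 ± 0.270 at day 2 (0.13, adjusted p = 0.00268). Ccn5, a secreted matricellular protein that holds Zfp423 in the cytoplasm, was at 64.5 FPKM in WT-labelled and 16.8 in KO-labelled cells at day 0 (-1.88, adjusted p = 4.57e-12). Across this list of 8 genes 6 were tested, with 4 higher and 2 lower in KO-labelled cells at day 0 and 4 higher and 1 lower at day 2. One of the genes lower at day 0, Smad4 (-0.18), did not pass with TPM (-0.08).

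The members below the filter were Dpp4, a serine protease that cleaves peptides at the cell surface, and Nt5e (CD73), which makes adenosine from AMP. Dpp4 was listed at 0 in all 6 WT-labelled libraries. In KO-labelled libraries it was at 0.122, 0.102 and 0.104 FPKM at day 0 and at 0.164, 0.231 and 0.248 at day 2. These values stand for 9 recovered reads at day 0 and 18 at day 2 over 3 libraries each, against none in WT-labelled libraries. Set against an assumed floor of 3 reads over the WT group, the ratio was 3.12 at day 0 and 6.19 at day 2. The floor bounds the WT side alone, and the counting scatter of the few KO reads is not included. Its 2 tested neighbours within 500 kb, Slc4a10 and Ifih1, were also higher in KO-labelled cells, by 5.44 and 2.09 on the log2 scale at day 0 and by 5.07 and 1.00 at day 2, and were chosen after their values were seen. Nt5e was at 0.0354, 0.0926 and 0.0536 FPKM in WT-labelled libraries at day 0 and at 0.0658, 0.0372 and 0.0555 at day 2, and in KO-labelled libraries at 0.105, 0.0707 and 0.162 and then at 0.322, 0.399 and 0.312. The KO-labelled day 2 group alone stood clear of the others. With no filter on low values the day 2 difference was 0.35 on the log2 scale (limma adjusted p = 1.46e-05), a 6.52-fold ratio, and at day 0 it was 0.07 with overlapping groups (adjusted p = 0.183).

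Other genes of the cell types that Dpp4 and Nt5e help to define were examined as lists. Of 10 genes of interstitial Dpp4-positive progenitors 3 were tested: Sema3c, Anxa3 and Pi16. Sema3c, a secreted semaphorin, was at 12.2 ± 0.848 FPKM in WT-labelled and 322 ± 4.75 in KO-labelled cells at day 0 (4.61, limma adjusted p = 1.86e-15) and at 11.6 ± 0.373 and 153 ± 2.48 at day 2 (3.61, adjusted p = 5.01e-15). At day 0, 1 of the 3 was higher and 1 lower, and at day 2 all 3 were higher. The lower gene was Anxa3, an annexin, at 255 FPKM in WT-labelled and 78.3 in KO-labelled cells at day 0, then at 3.22 and 43.6 at day 2. Icam1, which defines the committed preadipocyte group, was nearly absent (at most 0.0144 FPKM as a group mean). Of the 10 genes of that group 7 were tested, with 4 higher and 1 lower at day 0 and 4 higher and 3 lower at day 2. The day 0 count was 5 higher and 1 lower with TPM or median-of-ratios factors. Pparg, the receptor that drives adipocyte formation, differed most at day 0, at 10.2 FPKM in WT-labelled and 2.85 in KO-labelled cells (-1.55, adjusted p = 6.69e-09). Fabp4, a fatty acid carrier of adipocytes and a member of the adipocyte list too, differed most at day 2, at 2975 ± 79.2 FPKM in WT-labelled and 10.3 ± 0.367 in KO-labelled cells (-8.04, adjusted p = 8.18e-12). Of 7 genes of the F3-positive regulatory stroma 5 were tested, and 4 were higher and 1 lower at each day. They were led by Bgn, a matrix proteoglycan, at 1743 and 4509 FPKM at day 0 (1.37, adjusted p = 1.26e-13), and by Fmo2, a monooxygenase, at 0.880 and 12.4 at day 2 (2.83, adjusted p = 4.58e-12). Fmo2 passed the filter only through the KO-labelled day 2 libraries, so its difference at day 2 was built in.

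Around Nt5e, 6 of 13 genes that make, remove or sense extracellular adenosine were tested. At day 0, 1 was higher, 2 lower and 3 did not pass, and at day 2, 4 were higher and 2 lower, with a median log2 difference of -0.01 and then 0.88. The day 0 count depended on the scaling, with 3 higher and 1 lower with TPM or median-of-ratios factors and 4 higher and 1 lower with quantile scaling. Ada, the enzyme that degrades adenosine, was at 10.4 ± 0.707 FPKM in WT-labelled and 2.51 ± 0.278 in KO-labelled cells at day 0 (-1.70, limma adjusted p = 1.03e-08) and at 2.97 ± 0.443 and 2.13 ± 0.302 at day 2 (-0.34, adjusted p = 0.00721). Slc29a1, an equilibrative nucleoside transporter, was at 154 ± 4.17 and 146 ± 4.44 FPKM at day 0, a difference of -0.08 (adjusted p = 0.018) that changed sign under each other scaling, and at 45.7 ± 0.924 and 174 ± 2.31 at day 2 (1.91, adjusted p = 3.81e-14). Enpp1, an ectonucleotidase, was higher in KO-labelled cells by 0.99 at day 0 and 1.29 at day 2. Enpp3, of the same family, and the adenosine kinase Adk differed by -0.03 and 0.00 at day 0 (adjusted p = 0.846 and 0.93) and were higher at day 2 by 1.51 and 0.46. Entpd5 was lower at day 2, at 27.7 FPKM in WT-labelled and 5.13 in KO-labelled cells (-2.23, adjusted p = 5.52e-12). Adora2b, the most abundant adenosine receptor at day 0, had 1.27 ± 0.145 FPKM in WT-labelled and 0.381 in KO-labelled cells, and Adora1, Adora2a and Adora3 were under 1 FPKM in every group. Entpd1 and Entpd2 were near 0, and Alpl was at 3.74 FPKM in WT-labelled day 2 cells and at 0.146 or less in the other groups on average.

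Counted together, 5 of the 8 tested members were higher and 2 lower in KO-labelled cells at day 0, where 38.3% of all tested genes were higher and 44.2% lower. At day 2, 6 were higher and 1 lower, against 40.8% and 40.6% of all tested genes. Over time 1 rose and 7 fell in WT-labelled cells, where 34.2% of tested genes rose and 46.5% fell (80.7% in all). In KO-labelled cells 0 rose and 7 fell, against 33.9% and 38.8% (72.7% in all). Since about 4 in 5 tested genes passed the test between genotypes (82.4% at day 0 and 81.4% at day 2), a call by itself says little here. When a change of at least 2-fold on the fitted scale was asked as well, 2 members were higher and 2 lower at day 0 (10.4% and 11.9% of tested genes), and 5 higher and 0 lower at day 2 (12.9% and 11.5%). By that rule 0 rose and 7 fell over time in WT-labelled cells (9.28% and 15.1%), and 0 rose and 4 fell in KO-labelled cells (5.46% and 6.99%). The median log2 difference of the 8 was 0.36 at day 0 and 2.33 at day 2, beside -0.06 and 0.00 over all tested genes, and the median change over time was -2.80 in WT-labelled and -0.95 in KO-labelled cells beside -0.11 and -0.03. These comparisons share libraries in pairs and are not independent of each other.

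**Figure D3:**
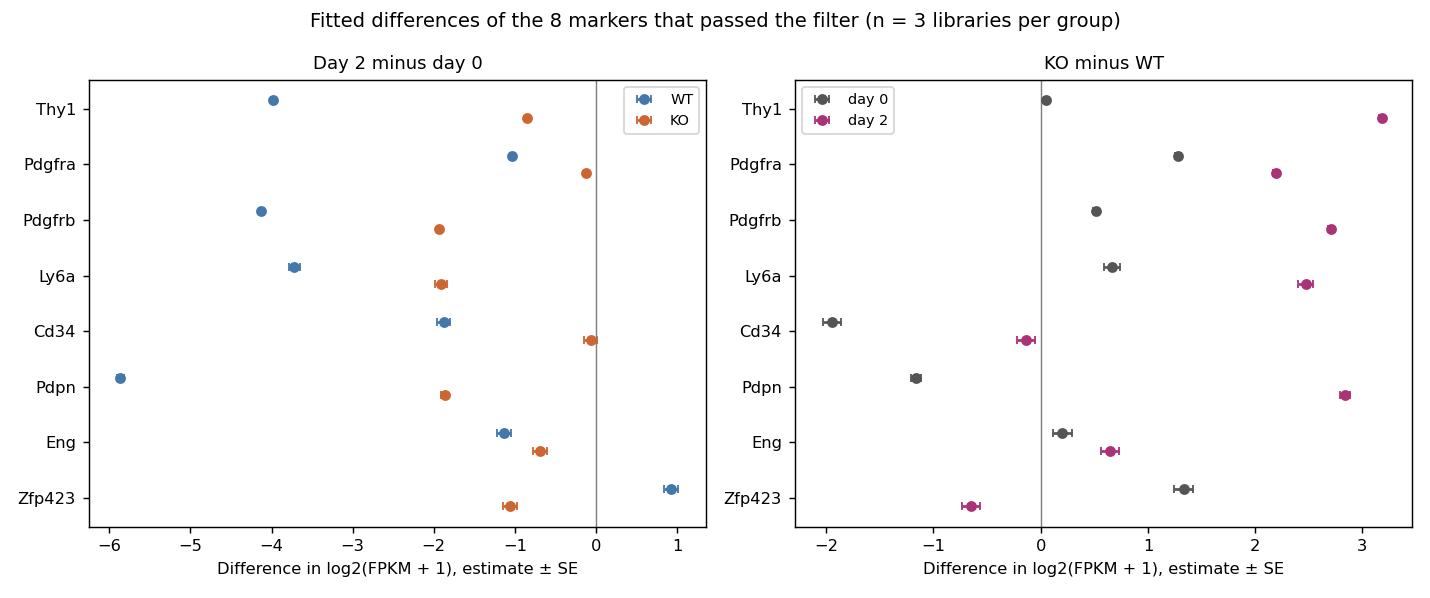
Points are fitted differences in log2(FPKM + 1) with bars of 1 SE (3 libraries per group) for the 8 members that passed the filter, day 2 minus day 0 by genotype label on the left and KO minus WT by day on the right. On the left the WT points of every marker but Zfp423 lie further below 0 than the KO points; on the right Pdpn lies below 0 at day 0 and above it at day 2, and Zfp423 the reverse.

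The genotypes differed in their change over time for all 8 tested members by the interaction term, against 73.8% of all tested genes (40.8% positive and 33.0% negative). With at least 2-fold asked, 5 were positive and 1 negative, against 12.8% and 8.71%. The interaction was the change in KO-labelled cells minus that in WT-labelled cells. Pdpn had the largest, 4.00 on the log2 scale (SE 0.07, limma adjusted p = 3.33e-13), since it fell far more in WT-labelled cells. Thy1 followed with 3.13 (SE 0.04, adjusted p = 3.00e-14) and Pdgfrb with 2.19 (SE 0.04, adjusted p = 9.79e-13). Ly6a and Cd34 each had 1.81 (adjusted p = 1.24e-08 and 4.53e-08), Pdgfra had 0.91 (adjusted p = 1.21e-09) and Eng 0.45 (adjusted p = 0.00627). The value for Cd34 came from a fall in WT-labelled cells to a level at which KO-labelled cells already stood at day 0. Zfp423 had the only negative term, -1.98 (SE 0.12, adjusted p = 2.89e-08). Adipocyte markers moved with these results: their sum over 8 genes was 73.2 to 76.6 FPKM in WT-labelled and 222 to 231 in KO-labelled libraries at day 0, and 8660 to 8844 and 774 to 791 at day 2, with Lep listed at 0 throughout. All 7 tested adipocyte markers rose over time in both genotypes, where 34.2% (WT) and 33.9% (KO) of all tested genes rose. All 7 were lower in KO-labelled cells at day 2, as were 40.6% of all tested genes. Adipoq passed the filter only through the WT-labelled day 2 libraries, so its differences from that group were built in. The part of the adipocyte markers in the results on the members was not tested. At day 0, Lpl, which encodes lipoprotein lipase, differed most among the adipocyte markers, at 55.9 ± 2.32 FPKM in WT-labelled and 190 ± 3.62 in KO-labelled cells (1.75, adjusted p = 1.53e-13). Fibroblast markers summed to 11025 to 11275 and 28182 to 28840 FPKM at day 0 and to 1584 to 1619 and 9143 to 9425 at day 2. That sum ordered the groups as Pdgfrb and Ly6a did, but single fibroblast markers did not all do so. Vim was at 2360 FPKM in WT-labelled and 1570 in KO-labelled cells at day 0, and at 425 and 2115 at day 2. Of the 7 tested fibroblast markers, 5 were higher and 2 lower in KO-labelled cells at day 0, and 7 were higher at day 2. The part of these markers was not tested either. Dcn, a matrix proteoglycan, differed most of these at day 0, at 26.6 ± 1.02 and 279 ± 8.67 FPKM (3.34, adjusted p = 6.37e-15), and Col1a1, a chain of type I collagen, at day 2, at 161 ± 2.22 and 2024 ± 39.5 FPKM (3.64, adjusted p = 2.63e-16).

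The members were set beside 23 other surface markers of stromal cells, of which 15 were tested. At day 0, 11 were higher and 4 lower in KO-labelled cells, with a median log2 difference of 0.67 (38.3%, 44.2% and -0.06 over all tested genes). At day 2, 14 were higher and 1 lower, with a median of 1.33 (40.8%, 40.6% and 0.00 over all tested genes). Over time 2 rose and 13 fell in WT-labelled cells (34.2% and 46.5% of all tested genes). In KO-labelled cells 5 rose and 10 fell (33.9% and 38.8%). With TPM 4 rose and 10 fell in KO-labelled cells, and with quantile scaling 3 rose and 10 fell. Alcam, an adhesion protein, led at day 0, at 38.5 ± 0.517 FPKM in WT-labelled and 122 ± 3.32 in KO-labelled cells (1.65, limma adjusted p = 4.32e-14). Anpep, a surface aminopeptidase, led at day 2, at 1.93 ± 0.191 and 27.8 ± 1.44 FPKM (3.3, adjusted p = 7.89e-14). The gene lower at day 2 was Mcam (CD146), an adhesion protein of pericytes and endothelium, at 9.56 and 0.464 FPKM, named after its value was seen. Mcam passed the filter only through the WT-labelled day 2 libraries and Cd24a only through the KO-labelled day 2 ones. Their place in the day 2 counts was therefore built in. Cd44 and Cd9 of this list are also among the podoplanin partners, Dlk1 and Icam1 in the committed group, F3 in the regulatory group and Cd55 in the interstitial group, so the lists are not separate sets.

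**Figure D4:**
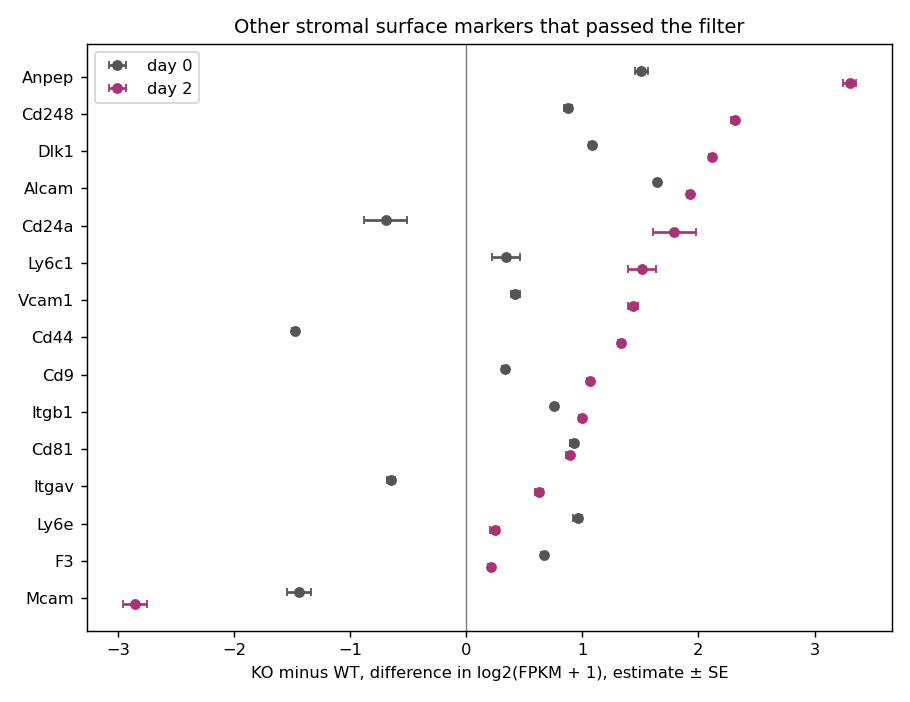
Points are KO minus WT differences in log2(FPKM + 1), with bars of 1 SE (3 libraries per group), at day 0 and day 2 for the 15 tested surface markers of stromal cells outside the 10 members. At day 2 Mcam alone lies below 0, while at day 0 Cd24a, Cd44, Itgav and Mcam do.

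The genes most like each member over the 12 libraries were found by Pearson's r of log2(FPKM + 1). The libraries fall into 4 tight groups, so r describes group means and carries no p. Thy1 was most like Sfxn3 and Map1a (r = 0.999 each), and Pdgfra most like Il6st and Sh3bp5 (0.999 each). Pdgfrb was most like Atp1b1 and Wnt5a (0.999 each) and Ly6a like Cd9 (0.999) and Wnt5a (0.998), so Wnt5a, a secreted Wnt ligand, was named for both. It was at 38.4 ± 1.13 FPKM and 7.05 ± 0.116 in WT-labelled cells at day 0 and day 2, and at 50.4 ± 1.04 and 22 ± 1.49 in KO-labelled cells (SD, n = 3). Pdpn was most like Itpr3 (1.00 after rounding) and Rtn4 (0.999), and Cd34 like Cenpc1 (0.999) and Actg2 (0.998). Actg2, a smooth muscle actin, was at 13.2 ± 0.359 FPKM in WT-labelled day 0 cells and at 0.217 or less in the other groups on average. Like Cd34, Actg2 passed the filter only through the WT-labelled day 0 libraries, so their likeness rests on that group. Eng was most like Pla2g7 and Tet1 (0.992 each), and Zfp423 like Dnmt3a (0.991) and Cwc22 (0.982).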

How the data were processed

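RNA of 12 3T3L1 libraries was analysed; 24 MeRIP samples of the series were not analysed here. The deposited table holds FPKM per gene as the authors computed them, and TopHat2 2.0.12, Bowtie2 2.2.3, HTSeq 0.6.1 and build mm10 are among the entries of the submitters' processing notes, without roles. How FPKM were calculated, with which annotation and strand setting, the sources used here do not say. A symbol was found for 51633 of 52505 identifiers. Values of all 30916 genes above 0 were whole multiples of a step per gene (tolerance 0.001 of a read), which gave 18073258 to 23114994 reads per library. Recovered reads are the smallest whole numbers that fit, so a shared factor is lost. On these reads voom, as an alternative, called 10683 genes between genotypes at day 0 and 10557 at day 2.

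The analysis used log2(FPKM + 1) and a filter of a mean of 1 FPKM (12961 genes). The fit was made by limma 3.58.1 in R 4.3.3 with 1 mean per group and a variance trend (8 residual degrees of freedom). It was also run on simulated counts in which few genes were changed. Far more genes were called in the real libraries, so that run does not check the fit at such shares. Tests were 2-sided with Benjamini-Hochberg adjustment at 0.05. A change on this scale understates that of low genes. Positions and promoters are RefSeq's, build GRCm38.p6. The text names all members, Zfp217, the 2 genes most like each member (predicted genes and clone names left out), the gene of each list with the largest called, non-overlapping difference between genotypes at each day, and PDGF ligands, Ebf1, Ebf2, Zfp521 and adenosine genes whatever they show. A few further list genes were named after their values were seen. Members and lists were chosen with earlier results of these data known.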

Additional observations from a re-analysis of the deposited data

Results flagged for a closer look

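The change from day 0 to day 2 differed between the genotype labels in each of the 8 members that passed the filter, by the interaction term (KO minus WT, limma on log2(FPKM + 1), threshold 0.05 after Benjamini-Hochberg adjustment). The terms were 3.13 for Thy1, 0.91 for Pdgfra, 2.19 for Pdgfrb, 1.81 for Ly6a, 1.81 for Cd34, 4.00 for Pdpn, 0.45 for Eng and -1.98 for Zfp423. Of all 12961 tested genes 73.8% passed the same test. Cd34, Eng and Zfp423 passed the filter only through the groups in which they were high, so a difference in them was built in. The Eng term was also lost with quantile scaling. With groups of 3, single libraries were not tested for standing apart.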

How the results depend on the processing

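The 40 changes of the 8 tested members were recomputed under 24 settings, giving 753 values. None reversed, 716 kept their direction and side of the threshold, 31 no longer passed it and 6 newly did. The number of members called at day 0 was 4 with a filter of 5 FPKM, 4 when at least 2-fold was asked and 4 in a test against 1.5-fold; with the 5 FPKM filter, which leaves 5 members, it was 5 over time in WT-labelled cells and 5 for the interaction, and with 2-fold it was 4 over time in KO-labelled cells. Leaving out each library in turn gave 6 called at day 0, without Eng, and changed no count in the other comparisons. Cd34 at day 2 passed with quantile scaling (-0.53) and without a variance trend (-0.14), and Thy1 at day 0 with quantile scaling (0.27). With quantile scaling Eng lost its day 0 call (0.06, limma adjusted p = 0.571) and its interaction (0.22, adjusted p = 0.145).

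Replicate numbers did not pair libraries: correlations of same-numbered deviations were -0.0545 to 0.0869, and 6 of 12 libraries correlated best with their own number. With the replicate block 6 members were called at day 0, where Eng had adjusted p = 0.0622, 7 at day 2, 8 and 7 over time in WT- and KO-labelled cells, and 8 for the interaction.

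Over all genes at day 0, 4958 were higher and 5726 lower; with TPM the split was 5541 and 5032, with median-of-ratios factors 5454 and 5198 and with quantile scaling 5425 and 5237. Over time in WT-labelled cells 4429 rose and 6032 fell, against 5025 and 5325 with median-of-ratios factors and 5226 and 5136 with quantile scaling, which moved the median of all genes by 0.12. The pseudocount shrinks low members: with voom on recovered reads the day 0 difference was -3.78 for Cd34 and 2.71 for Zfp423, and the day 2 difference 2.28 for Eng and -1.27 for Zfp423. Depth limits Dpp4 and Nt5e, which rest on 0 to 56 reads per group.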
